A study of Mus musculus with 32 samples.

Results

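The comparison described here is that of the mouse pre-B cell line 230238 carrying Ebf1-Engrailed with the same line carrying an empty vector. Its members are 6 of the 32 arrays of the series, the 3 titled as Ebf1-Eng and the 3 titled as pMig (EV), chosen by those titles. Cells of the line were grown in RPMI1640 medium and infected with the retroviral vector pMIG, either with an Ebf1-engrailed insert or without one. Infected cells were sorted by the vector's GFP, and RNA of 500000 cells per sample was hybridised to an Affymetrix expression array. All 6 samples therefore share the line, the GFP-marked vector and the sort. The line is a single line, and the sources used here do not say whether the 3 samples of a group were separate infections or cultures, and a p-value here speaks only of how far these samples scatter, possibly for technical reasons alone.

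Ebf1 is a zinc-knuckle transcription factor that early B cells need to switch on the genes of the B lineage, among them the surrogate light chains and signalling chains of the pre-B-cell receptor. It acts together with the E proteins encoded by Tcf3, with Pax5 and with Foxo1. The Engrailed repressor domain, taken from a fly homeodomain protein, recruits Groucho-type corepressors, so a fusion of it to a DNA-binding protein is commonly used to repress the genes which that protein would bind. The pre-B-cell receptor, built from an immunoglobulin heavy chain and the surrogate light chain, drives pre-B cells to divide before they rearrange their light-chain genes.

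The deposited values are log2 expression values from which the median of the 6 arrays has been subtracted for each probe set. A value of 0 is thus the middle of the 6 samples, and only differences can be read: whether a gene was abundant or barely detected, and whether markers that define a pre-B cell were present, cannot be told from them. Where the groups do not overlap, the subtraction also makes the lowest value of the higher group and the highest of the lower group equal in size. Both samples numbered 3 stood apart from the others. Their root mean square distance from the mean of their group over all genes was 0.264 and 0.266 on the log2 scale, against 0.158 to 0.209 for the other 4 samples. The first principal component placed the empty-vector samples between 34.66 and 42.36 and Ebf1-Engrailed samples 1 and 2 at -47.34 and -48.57, with Ebf1-Engrailed sample 3 at -18.76. The samples numbered 3 of both groups deviated together, so a fit with the replicate number as a block is given where it changes a result. The deviations do not show that samples 1 and 2 are paired by number.

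Of 18194 genes tested, 2475 (13.6%) differed between the groups at an adjusted p under 0.05 by limma's moderated test. They were 1443 genes (7.93%) higher and 1032 (5.67%) lower with Ebf1-Engrailed, and these shares are the background for every gene list below. Large changes were mostly increases: 196 genes were called at least 4-fold higher and 42 at least 4-fold lower. Each of the 2475 genes differed in the same direction in all 3 same-numbered pairs. The calls were made on these same samples, which nearly fixes that outcome, so it is no separate support. The size of the difference was smaller for samples numbered 3, with a median of 0.75 for genes called higher and -0.68 for genes called lower, against 1.05 and -0.86 for samples numbered 1 and 0.99 and -0.93 for samples numbered 2. Leaving out a sample from numbers 1 or 2 lowered the number of calls to 1135 for Ebf1-Engrailed sample 1, 1140 for Ebf1-Engrailed sample 2, 1594 for empty-vector sample 1 and 1332 for empty-vector sample 2. Without Ebf1-Engrailed sample 3 there were 3185 calls and without empty-vector sample 3 there were 2809. With the replicate block 1876 genes were called higher (10.3%) and 1622 lower (8.92%), and 2423 of the 2475 genes were still called. Without both samples numbered 3 the count was 4773.

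Promoters of 6 genes that changed are shown because each holds a motif counted below, and the gene groups are described below. Each sequence is the RefSeq sequence of the 250 bases before the start site in build GRCm38.p6, 5′ to 3′ on the strand of the gene, with the motif in capitals.
Igll1, chr16:16863986-16864235, minus strand, Ebf1 motif: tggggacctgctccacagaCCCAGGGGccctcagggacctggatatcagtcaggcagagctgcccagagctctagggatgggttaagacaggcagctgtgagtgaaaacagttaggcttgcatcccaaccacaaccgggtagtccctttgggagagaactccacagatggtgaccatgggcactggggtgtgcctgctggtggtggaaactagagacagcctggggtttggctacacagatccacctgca
Erg, chr16:95586594-95586843, minus strand, Ebf1 motif: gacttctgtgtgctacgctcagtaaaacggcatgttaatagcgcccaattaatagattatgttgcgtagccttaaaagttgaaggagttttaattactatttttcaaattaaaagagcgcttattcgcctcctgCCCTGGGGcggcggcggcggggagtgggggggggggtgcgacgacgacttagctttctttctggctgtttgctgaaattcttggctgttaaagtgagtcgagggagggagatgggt
Mcm5, chr8:75109259-75109508, plus strand, E2F motif: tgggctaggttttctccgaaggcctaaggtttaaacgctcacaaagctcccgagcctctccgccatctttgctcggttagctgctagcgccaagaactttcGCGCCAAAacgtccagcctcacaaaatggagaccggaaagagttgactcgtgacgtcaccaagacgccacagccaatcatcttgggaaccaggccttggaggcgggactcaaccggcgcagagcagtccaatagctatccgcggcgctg
Kif11, chr19:37376132-37376381, plus strand, CHR motif: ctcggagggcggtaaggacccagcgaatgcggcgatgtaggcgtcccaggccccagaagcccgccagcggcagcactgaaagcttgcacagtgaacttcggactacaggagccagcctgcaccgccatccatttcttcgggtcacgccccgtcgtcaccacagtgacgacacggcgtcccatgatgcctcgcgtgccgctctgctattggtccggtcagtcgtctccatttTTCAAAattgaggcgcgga
Mmp13, chr9:7272264-7272513, plus strand, AP-1 motif: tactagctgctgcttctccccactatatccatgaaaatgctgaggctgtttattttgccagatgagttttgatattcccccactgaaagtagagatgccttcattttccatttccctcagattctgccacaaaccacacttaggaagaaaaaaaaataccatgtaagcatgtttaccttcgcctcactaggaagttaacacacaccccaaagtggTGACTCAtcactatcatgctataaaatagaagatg
Ifit1, chr19:34640639-34640888, plus strand, ISRE motif: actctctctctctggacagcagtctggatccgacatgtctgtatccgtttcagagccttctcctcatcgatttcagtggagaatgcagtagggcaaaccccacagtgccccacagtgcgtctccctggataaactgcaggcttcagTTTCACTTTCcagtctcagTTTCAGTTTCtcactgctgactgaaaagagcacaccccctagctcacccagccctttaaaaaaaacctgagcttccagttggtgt

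The motifs were searched on both strands. They were CCCNNGGG for Ebf1, TTTCCCGC or TTTGGCGC for the E2F factors, TTTGAA for the cell cycle homology region (CHR) and TGANTCA for AP-1, and the interferon-stimulated response element (ISRE) was searched as a pair of GAAA blocks separated by any 2 bases. The first base of the match lay at -231 in the Igll1 sequence, -116 in Erg, -149 in Mcm5, -19 in Kif11 and -35 in Mmp13, counted from the start site, and Ifit1 held 2 matches, at -104 and -85. A sequence was at hand for 14453 of the genes tested, with 18110 start sites. The Ebf1 motif was in 14.7% of all these promoters, in 16.5% of those of genes called lower and in 16.9% of those of genes called higher, so its share hardly differed by direction. It was in 4 of the 13 promoters of pre-B receptor chains and coreceptors (30.8%), in 9 of 30 of the AP-1 and ERK feedback genes (30.0%) and in 5 of 46 of the B-lineage transcription factors (10.9%). The E2F motif was in 1.93% of all promoters, in 4.48% of those of genes called lower and in 14.3% of those of the replication list. The CHR motif was in 11.9% of all promoters, in 13.9% of those of genes called lower and in 10.7% of those called higher. It was in 34.0% of those of the mitotic list and in 3.12% of those of homologous recombination and the Fanconi pathway. For the AP-1 motif the shares were 5.62% of all promoters, 6.15% of those of genes called higher and 2.71% of those called lower. They were 31.0% for matrix proteases and their inhibitors and 0 of 30 promoters for the AP-1 and ERK feedback genes. The ISRE was in 2.61% of all promoters, in 3.11% of those of genes called higher and in 3.45% of those called lower. In the interferon list its share was 32.4%. These motifs were not confined to the lists with the largest shares. In the other lists counted, E2F ranged from 0.0% to 12.5% (homologous recombination and Fanconi) and CHR from 3.12% to 24.1% (matrix proteases). The AP-1 motif ranged there from 0.0% to 21.6% (interferon list) and the ISRE from 3.33% to 10.3% (matrix proteases). A match is a description of the letters and was not tested as a binding site.

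Transcripts of Ebf1 itself were lower with Ebf1-Engrailed. The probe set used gave -1.16, -1.45 and -0.49 in Ebf1-Engrailed samples 1 to 3 and 0.87, 0.49 and 0.83 in the empty-vector samples. The groups did not overlap, and the Ebf1-Engrailed samples were 3.41-fold lower (log2 change -1.77 ± 0.25 SE, n = 3 and 3, adjusted p = 0.00486 by limma). Of the 5 Ebf1 probe sets, 4 were called lower, with log2 changes from -1.77 to -1.50, and the fifth had a log2 change of -0.37 (adjusted p = 0.168). Which of these probe sets lie in the part of Ebf1 carried by the vector is not given in the sources used here, so they do not measure the fusion apart from the line's own transcript. Among 15 genes of the Ebf family, its zinc-finger partners and the Groucho corepressors, Tle1, a Groucho corepressor, rose 1.57-fold and Zfp423, a zinc-finger protein that binds Ebf factors, fell 1.84-fold. Neither Tle1 nor Zfp423 was called without Ebf1-Engrailed sample 1 or 2, and Zfp423 was also not called without empty-vector sample 1 or 2.

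Several chains of the pre-B-cell receptor fell with Ebf1-Engrailed. Of 17 measured receptor chains and coreceptors, 8 were called lower (47.1%, against 5.67% of all genes) and 1 higher, with a median log2 change of -0.76 against -0.02 for all genes. Igll1, which encodes the λ5 part of the surrogate light chain, had values of -2.08, -2.12 and -1.54 with Ebf1-Engrailed and 2.49, 2.65 and 1.54 with the empty vector. It showed the largest decrease of all genes called lower, 17.6-fold (log2 change -4.14 ± 0.31, adjusted p = 0.000555). That change was seen by 1 of its 2 probe sets, and the other had a log2 change of 0.03. The partner Vpreb1, which forms the surrogate light chain with λ5, was at -2.35, -2.18 and -0.55 against 0.55, 0.58 and 0.66. Ebf1-Engrailed sample 3 lay nearer to the empty-vector samples than samples 1 and 2 did, and the change of -2.29 ± 0.44 (adjusted p = 0.0161) was called in only 2 of the 6 fits that left out a sample. Vpreb3, a related chain that assists assembly of the receptor, fell 8.21-fold (-3.04 ± 0.33). Cd79b and Cd79a, the signalling chains, fell 4.40-fold and 1.96-fold. Their changes were -2.14 ± 0.32 and -0.97 ± 0.13, and the groups overlapped for neither. Cd72 (-0.36 ± 0.12) and Cd81 (0.27 ± 0.10), coreceptor proteins of the surface, did not pass the test. Leaving out Ebf1-Engrailed sample 1 or 2 or empty-vector sample 2 gave 5 members called lower each.

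**Figure D1:**
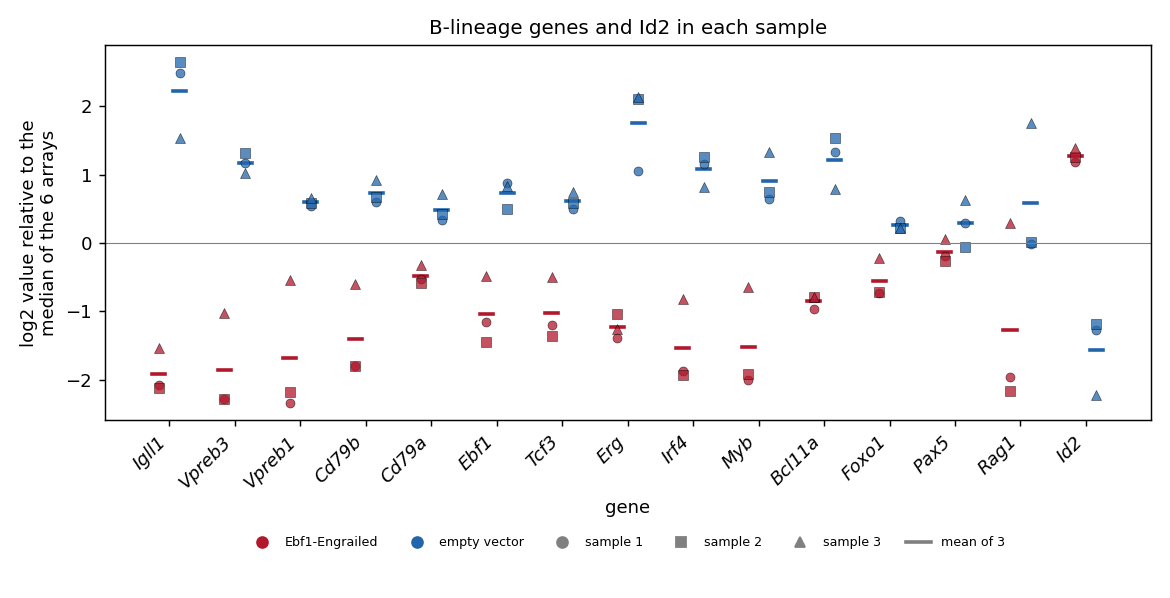
Each gene's log2 value relative to the median of the 6 arrays (y axis) in Ebf1-Engrailed samples (red) and empty-vector samples (blue), with circles, squares and triangles for samples 1, 2 and 3 and a line at the mean of 3. Igll1, Vpreb3 and Erg are far apart in the groups, Pax5 overlaps, and for Rag1 sample 3 is the highest of its group in both groups.

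Of the transcription factors of the B lineage 16 fell, while Id2 and Id3, inhibitors of E proteins, rose. The list has 32 measured factors, of which 50.0% were called lower, 4 were called higher and 12 were not called. Without Ebf1-Engrailed sample 1 there were 10 lower, and without sample 2, empty-vector sample 1 or empty-vector sample 2 there were 11 each. Tcf3, which encodes the E proteins E12 and E47, was at -1.20, -1.36 and -0.49 against 0.49, 0.58 and 0.75, and all 3 of its probe sets were called lower (-1.63 ± 0.23, adjusted p = 0.00464). Erg, an ETS-family factor of blood progenitors, was at -1.38, -1.05 and -1.27 against 1.05, 2.11 and 2.13. The change in Erg was 7.97-fold (-2.99 ± 0.29), in 1 of its 2 probe sets, and the other had a log2 change of -0.12. Irf4, which acts downstream of the pre-B-cell receptor, fell 6.14-fold (-2.62 ± 0.30). Myb, a factor of proliferating progenitors, fell 5.37-fold (-2.42 ± 0.38) with all 3 of its probe sets called, and Bcl11a, a zinc-finger factor that B-cell development requires, fell 4.19-fold with 5 of its 7 probe sets called. Foxo1, a forkhead factor that works with Ebf1, fell 1.76-fold (-0.82 ± 0.16, adjusted p = 0.015), and 2 of the 6 fits that left out a sample still called it.

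Pax5, the factor that commits cells to the B lineage, did not pass the test. Its values were -0.20, -0.26 and 0.05 with Ebf1-Engrailed and 0.29, -0.05 and 0.62 with the empty vector, so the groups overlapped (-0.42 ± 0.18, adjusted p = 0.2, and 0.0528 with the replicate block). Id2, which binds E proteins and keeps them off DNA, was higher in every Ebf1-Engrailed sample, at 1.18, 1.26 and 1.38 against -1.27, -1.18 and -2.23. All 3 of its probe sets were called, and the one used rose 7.13-fold (2.83 ± 0.27, adjusted p = 0.00131). The 4 factors called higher in the B-lineage list were Id3, Bcl6, Sox4 and Tcf4, named after their values were seen. Mef2c, also named after its values were seen, was not called by the probe set used. Other Mef2c probe sets were called higher, with log2 changes from 0.81 to 0.84. Sox4 was called in 1 of the 6 fits that left out a sample. Id3, a relative of Id2, rose 4.04-fold (2.01 ± 0.10), and Tcf4, another E protein gene, rose 1.86-fold (0.90 ± 0.13). Among 34 transcription factors that mark other blood lineages 2 were called higher and 4 lower. Those lower came to 1 without Ebf1-Engrailed sample 1 or 2 or empty-vector sample 2, and to 2 without empty-vector sample 1. Those higher were Id2 and Gata1, the erythroid factor (1.06 ± 0.19), whose call was lost without Ebf1-Engrailed sample 1 or 2. Notch1, the T-lineage receptor, fell 1.88-fold (-0.91 ± 0.11). Gfi1 (0.13 ± 0.09), a transcriptional repressor that granulocyte development needs, did not pass the test.

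Several enzymes that carry the signal of the receptor fell. Of 29 measured, 7 were called lower and 2 higher, and 12 were called lower with the replicate block. The number called lower ranged from 4, without Ebf1-Engrailed sample 1 or 2 or empty-vector sample 2, to 11, without Ebf1-Engrailed sample 3. Pik3cd, the leukocyte PI3-kinase subunit p110δ, was at -1.66, -1.54 and -0.48 against 0.71, 0.48 and 0.69. It fell 3.62-fold (-1.86 ± 0.30, adjusted p = 0.00816), and 5 of its 6 probe sets were called lower. Plcg2, the phospholipase of the B-cell signal, fell 2.21-fold. Sh3bp2, an adaptor that binds SYK and phospholipase C, rose 2.69-fold (1.43 ± 0.14).

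For genes of V(D)J recombination the result depended on how the samples numbered 3 were treated. Of 12 measured genes, 1 was called lower and 1 higher, and with the replicate block 5 were called lower. Without Ebf1-Engrailed sample 3 there were 4. Without both samples numbered 3, and with no block, 5 were called lower and 3 higher. Rag1, a subunit of the recombinase that cuts antigen-receptor genes, was at -1.96, -2.17 and 0.29 with Ebf1-Engrailed and -0.02, 0.02 and 1.76 with the empty vector. Sample 3 was the highest of its group in each case, so the groups overlapped, yet Rag1 was lower with Ebf1-Engrailed within every numbered pair, with differences of -1.94, -2.19 and -1.47. The log2 change of -1.87 ± 0.75 had an adjusted p of 0.164 without the block and of 0.00119 with it. Its partner Rag2 differed within the pairs by -0.90, -0.64 and -1.26, with an adjusted p of 0.101 without the block and 0.00764 with it. Hmgb2, a DNA-bending cofactor of the recombinase that dividing cells also make, fell 2.96-fold without any pairing (-1.57 ± 0.13), and all 3 of its probe sets were called. Xrcc4, which joins broken ends with DNA ligase IV, rose 1.86-fold (0.89 ± 0.21), a call kept in 1 of the 6 fits that left out a sample.

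Secreted signals were among the largest increases. Ccl3, a chemokine that attracts monocytes and T cells, was at 3.22, 3.40 and 2.73 with Ebf1-Engrailed and -2.73, -3.11 and -4.03 with the empty vector. It was 85.0-fold higher (6.41 ± 0.34, adjusted p = 0.00016), and its neighbour Ccl4 rose by 3.17 ± 0.18 on the log2 scale. Of 25 chemokines measured 3 were called higher, which is 12.0% against 7.93% of all genes, and none lower. With the replicate block 5 were called higher, and with a sample left out the count ran from 2 to 6, the 6 without Ebf1-Engrailed sample 3. Csf2, which encodes the cytokine GM-CSF, was at 2.98, 2.69 and 2.43 against -2.43, -2.61 and -3.79 and rose 50.0-fold (5.64 ± 0.35). Il10, an anti-inflammatory cytokine, rose 17.1-fold (4.10 ± 0.38). Tnfsf4, the ligand of OX40, rose 22.9-fold (4.52 ± 0.35) and Hbegf, a ligand of the EGF receptor, 11.2-fold (3.48 ± 0.53). Inhba, the subunit of activin A, rose 31.1-fold (4.96 ± 0.22). Of 47 listed cytokines and growth factors, which do not include Inhba, 9 were called higher and 5 lower. Those lower came to 2 without Ebf1-Engrailed sample 2 or empty-vector sample 1, and to 3 without Ebf1-Engrailed sample 1 or empty-vector sample 2. Lta and Ltb, the lymphotoxin chains, were among the 5 and were named after their values were seen. Lta fell 5.58-fold (-2.48 ± 0.36) and Ltb 2.57-fold (-1.36 ± 0.21). Ifng was -0.04 ± 0.09 and did not pass the test.

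Receptors for cytokines moved in both directions. Of 52 measured, 7 were called higher and 8 lower, and 14 were called lower with the replicate block. Leaving out Ebf1-Engrailed sample 1 or 2 gave 3 lower, and leaving out empty-vector sample 2 gave 4. Those higher came to 4 without Ebf1-Engrailed sample 2 or empty-vector sample 2. Tnfrsf11b, the decoy receptor osteoprotegerin, was at 3.26, 3.22 and 2.75 against -2.75, -2.86 and -3.33. Both of its probe sets were called, and the one used rose 66.5-fold (6.05 ± 0.20, adjusted p = 3.47e-05). Tnfrsf12a, the receptor of the cytokine TWEAK, rose 11.3-fold (3.51 ± 0.32). Il10ra, the receptor for IL-10, fell 3.44-fold (-1.78 ± 0.34), a call lost without Ebf1-Engrailed sample 1 or 2 or empty-vector sample 2, and Csf2rb, the shared receptor chain for GM-CSF, fell 3.02-fold (-1.59 ± 0.25), so transcripts of both ligands rose while those of these receptor chains fell. Il7r, the receptor for the growth factor of early B cells, was at -0.02, 0.02 and 0.17 against -0.97, -0.65 and 0.42, with a log2 change of 0.46 ± 0.33 (adjusted p = 0.445).

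Receptors that guide migration also changed. Ccr2, a receptor of monocyte chemoattractants, was at 1.84, 1.85 and 1.75 against -1.75, -1.89 and -2.18. All 4 of its probe sets were called, and the one used rose 13.5-fold (3.75 ± 0.13, adjusted p = 3.74e-05). The mean log2 change over all 4 was 2.15. Cxcr6 rose 6.59-fold (2.72 ± 0.40). C3ar1, the receptor for a complement fragment and outside the list, rose in 3 of 3 probe sets (3.91 ± 0.14 in the one used, mean of all 2.51). Cxcr5, which directs B cells into follicles, fell 2.32-fold (-1.22 ± 0.20). Of 23 chemokine and homing receptors 5 were called higher and 3 lower. Without Ebf1-Engrailed sample 3 there were 8 higher, and without Ebf1-Engrailed sample 1 or 2 there were 3. Those lower came to 1 when any of the 4 samples numbered 1 or 2 was left out. The gamma subunit Gng4 of a heterotrimeric G protein, through which such receptors signal, had the second largest decrease, 15.8-fold (-3.98 ± 0.60). Of 31 RGS and heterotrimeric G protein genes 9 were called higher and 4 lower. Those higher came to 4 without Ebf1-Engrailed sample 1 or 2 and to 5 without empty-vector sample 2, and those lower to 1 without either of those Ebf1-Engrailed samples and to 2 without empty-vector sample 1 or 2. Rgs1, which shuts G-protein signals off, rose by 2.32 ± 0.16 on the log2 scale, and Arrb1, an arrestin, rose 3.84-fold (1.94 ± 0.11).

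Several signalling chains of other immune receptors rose. Fcer1g, the shared gamma chain of Fc receptors, was at 3.01, 2.94 and 2.62 against -2.62, -3.70 and -4.75, a 93.6-fold rise (6.55 ± 0.48, adjusted p = 0.000533). Fcgr3, an IgG receptor that signals through this chain, rose 6.45-fold (2.69 ± 0.38), and Clec4d, a C-type lectin, rose 6.70-fold (2.74 ± 0.12). Of 23 Fc receptors and ITAM-bearing chains 6 were called higher (26.1%), 1 lower and 16 not called. Of 26 T-cell receptor chains and adaptors 5 were called higher, 2 lower and 19 not called. Lat, the scaffold of T-cell receptor signalling, was at 2.18, 2.26 and 1.47 against -1.47, -1.51 and -1.82 and rose 11.9-fold (3.57 ± 0.22). Cd28, the T-cell costimulator, rose 4.63-fold (2.21 ± 0.16) and Lcp2, the adaptor SLP-76, rose 3.98-fold (1.99 ± 0.12). Sit1, an adaptor that dampens lymphocyte receptors, fell 4.87-fold (-2.29 ± 0.24). Cd3e, a chain of the T-cell receptor itself, was -0.20 ± 0.11 and did not pass the test.

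**Figure D2:**
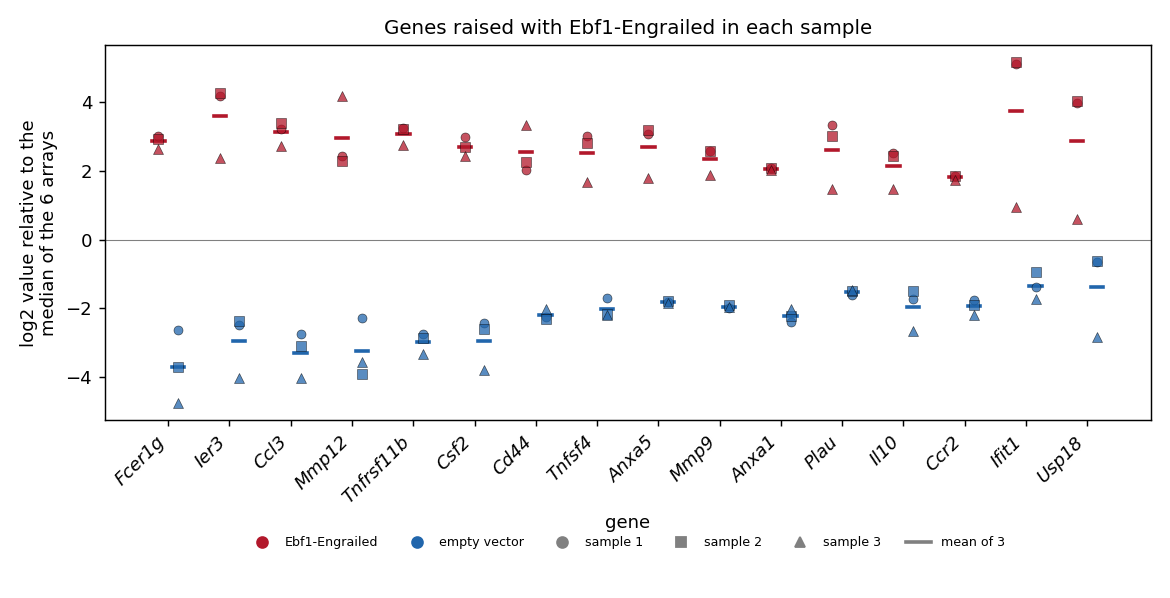
Each gene's log2 value relative to the median of the 6 arrays (y axis), drawn as in the plot of B-lineage genes, for 16 genes called higher with Ebf1-Engrailed. The groups are apart for every gene, and for Ifit1 and Usp18 Ebf1-Engrailed sample 3 lies well below samples 1 and 2.

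Several proteases that cut the extracellular matrix rose. Of 31 matrix proteases and inhibitors 13 were called higher (41.9% against 7.93% of all genes) and none lower, and with a sample left out 11 to 15 were. Mmp12, the macrophage elastase, was at 2.43, 2.28 and 4.18 against -2.28, -3.91 and -3.57, a 74.4-fold rise (6.22 ± 0.60). Mmp9, a gelatinase, was at 2.57, 2.57 and 1.89 against -1.98, -1.89 and -1.97. The probe set used rose 19.6-fold (4.29 ± 0.19), and both of its probe sets were called. Mmp13, a collagenase whose promoter is shown above, was at 1.51, 1.47 and 2.72 against -1.47, -1.95 and -4.01. For Mmp13 the pair difference was 6.73 in samples numbered 3 and 2.99 and 3.42 in the others. Plau, the urokinase that activates plasminogen, rose 17.4-fold in the probe set used (4.12 ± 0.44), and both of its probe sets were called. Mmp7 (0.04 ± 0.10) and Serpinb2 (0.02 ± 0.09) did not pass the test.

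Some adhesion, cytoskeletal and lysosomal genes rose. Of 41 integrins, selectins and tetraspanins 12 were called higher (29.3%) and 2 lower. Leaving out Ebf1-Engrailed sample 1 or 2 gave 8 higher. Cd44, the receptor of hyaluronan, was at 2.01, 2.27 and 3.34 against -2.25, -2.30 and -2.01, a 26.5-fold rise in the probe set used (4.73 ± 0.32), with 2 of its 4 probe sets called. Itgb3, an integrin beta chain, rose 9.88-fold (3.30 ± 0.15), Cd151, a tetraspanin that binds integrins, 4.69-fold (2.23 ± 0.18). Tspan17, a tetraspanin outside the list, rose 32.7-fold (5.03 ± 0.20). Itgax was -0.02 ± 0.10. Of 44 genes of the actin cytoskeleton and cell shape 17 were called higher (38.6%) and 5 lower. Those lower numbered 1 without Ebf1-Engrailed sample 1 or 2 or empty-vector sample 2 and 2 without empty-vector sample 1. Anxa1, a membrane-binding annexin, was among the 5 genes with the smallest adjusted p. Anxa1 values were 2.08, 2.07 and 2.02 against -2.39, -2.24 and -2.02 (4.27 ± 0.12, adjusted p = 2.32e-05). Only 1 of its 2 probe sets was called, and the mean log2 change over both was 2.03. Anxa5 rose 22.6-fold, Pls3, an actin-bundling plastin outside the list, 21.9-fold, and Ahnak, a giant scaffold protein under the membrane, 14.1-fold. For Ahnak 3 of its 4 probe sets were called, and the mean log2 change over all 4 was 1.87, against 3.81 in the one used. S100a6, a small calcium-binding protein, went the other way and fell 8.35-fold (-3.06 ± 0.32). Of 41 lysosomal genes 14 were called higher (34.1%) and 2 lower. The count of lysosomal genes called higher fell to 6 without Ebf1-Engrailed sample 1, 7 without sample 2 and 9 without empty-vector sample 1 or 2. Cd68, a lysosomal glycoprotein of macrophages, rose 4.47-fold (2.16 ± 0.39), and Tpp1, a lysosomal peptidase, rose 2.21-fold (1.15 ± 0.12).

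Most measured genes needed to copy and divide chromosomes fell. Of 49 genes of replication licensing and the fork, 34 were called lower (69.4%, against 5.67% of all genes) and none higher, with a median log2 change of -1.06. Of 54 genes of the spindle, kinetochore and condensin, 43 were called lower (79.6%) and none higher, with a median of -1.13. With a sample left out, 24 to 37 replication genes and 33 to 52 mitotic genes were called lower. Mcm4, a subunit of the replicative helicase, was at -0.98, -0.76 and -0.69 against 0.88, 0.69 and 0.89, a 3.11-fold fall (-1.64 ± 0.12). Mcm5, of the same helicase, fell 3.05-fold, with 3 of 3 probe sets called. Kif11, the motor that pushes spindle poles apart, fell 3.17-fold, also with 3 of 3 called. Kif15 (0.01 ± 0.10), another spindle motor, did not pass the test.

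Regulators of these genes changed in the same samples. Of 23 genes of the E2F, Rb and DREAM group 11 were called lower and none higher. Leaving out Ebf1-Engrailed sample 1 gave 6 and leaving out sample 2 gave 7. Lin9, a core subunit of the MuvB complex that binds CHR motifs, was at -0.68, -0.61 and -0.62 against 0.61, 0.69 and 0.68, a 2.46-fold fall with a small spread (-1.30 ± 0.09, adjusted p = 0.00044). Mybl2, its partner in S phase, fell 4.17-fold (-2.06 ± 0.35), though the call was lost without Ebf1-Engrailed sample 1. All 4 genes of the INK4 family, inhibitors of CDK4 and CDK6, were called higher and were named after their values were seen. Cdkn2c rose 2.23-fold, Cdkn2b 2.19-fold, Cdkn2a 2.08-fold and Cdkn2d 1.51-fold. Cdkn2a, with values of 0.28, 0.35 and 0.37 against -0.96, -0.91 and -0.28, was called in 3 of the 6 fits that left out a sample, and the other 3 genes in all 6. Cyclin D genes went apart: Ccnd3, the cyclin that pre-B cells rely on, fell 3.30-fold (-1.72 ± 0.22) in 1 of its 3 probe sets, and Ccnd1 rose 3.47-fold (1.79 ± 0.39) in 2 of 3. Ccnd1 was not called without Ebf1-Engrailed sample 1 or 2 or empty-vector sample 2. In the list of 38 cyclins, CDKs and inhibitors 7 were called higher and 13 lower. Without Ebf1-Engrailed sample 1 those lower numbered 5, without sample 2 or empty-vector sample 2 they numbered 6, and without empty-vector sample 1 they numbered 8. Those higher numbered 4 without Ebf1-Engrailed sample 1 or 2 or empty-vector sample 2.

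Genes of nucleotide synthesis, repair and chromatin were called lower in part. Of 26 genes of nucleotide synthesis 9 were called lower and 1 higher. Without empty-vector sample 3 there were 17 called lower, without both samples numbered 3 there were 22, and without Ebf1-Engrailed sample 2 there were 6. Dck, which salvages deoxynucleosides, fell 3.82-fold with 3 of 3 probe sets called, but its call was lost without Ebf1-Engrailed sample 1 or 2. Tyms, which makes thymidylate, fell 3.17-fold. Of 35 genes of homologous recombination and the Fanconi pathway 18 were called lower (51.4%) and none higher, with Rad54b, a recombination motor protein, at -1.76 ± 0.25. Of 35 genes of checkpoint and damage signalling 8 were called lower and 2 higher, and 13 lower with the replicate block. The 8 became 3 without Ebf1-Engrailed sample 1 or 2 or empty-vector sample 2, and 5 without empty-vector sample 1. Chek1, the kinase of the replication checkpoint, fell 2.80-fold (-1.49 ± 0.13), while Gadd45g, a stress-induced growth inhibitor, rose 10.1-fold (3.34 ± 0.44). Among 32 Polycomb, DNA methylation and chromatin enzymes 7 were called lower and 4 higher, with 11 lower under the replicate block. Each sample of numbers 1 and 2, when left out, gave 4 lower and 2 higher, and 11 were lower without empty-vector sample 3. Uhrf1, which brings DNA methyltransferase to copied DNA, fell 3.44-fold, Ezh2, the Polycomb methyltransferase, fell 3.36-fold, and Hdac9, a histone deacetylase, rose 4.78-fold (2.26 ± 0.27).

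Several genes of glucose use rose. Of 28 measured, 14 were called higher (50.0%) and none lower, with a median log2 change of 0.56, and with a sample left out 11 to 15 were called. Slc2a3, a glucose transporter, was at 1.19, 1.22 and 1.25 against -1.22, -1.27 and -1.19, a 5.43-fold rise with the samples of each group almost equal (2.44 ± 0.09, adjusted p = 4.11e-05). Slc2a1, the other main transporter, rose 4.90-fold, with 3 of 3 probe sets called. Pkm, pyruvate kinase, rose 3.99-fold and Hk1, hexokinase, 3.25-fold. Of 23 hypoxia-inducible genes 7 were called higher and 1 lower, and 4 were called higher without Ebf1-Engrailed sample 1 or 2 or empty-vector sample 2. P4ha2, a collagen prolyl hydroxylase, led these with a 10.4-fold rise (3.38 ± 0.22). Vegfa, a standard hypoxia target named after its value was seen, was the member that fell, 1.77-fold (-0.82 ± 0.18), a call lost when any of the 4 samples numbered 1 or 2 was left out.

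Oxidative stress and iron genes were called higher in 8 of 28 cases and lower in 1, and 13 were called higher with the replicate block. Leaving out Ebf1-Engrailed sample 1 or 2 or empty-vector sample 2 gave 5. Nqo1, a quinone reductase, was at 2.30, 2.36 and 0.43 against -0.43, -0.52 and -0.91. It rose 4.99-fold, and only 1 of the 6 fits with a sample left out called it. Gstm1, a glutathione transferase, rose 4.08-fold (2.03 ± 0.27). Of 25 genes of cholesterol synthesis and uptake 7 were called higher and 3 lower, and of the 7, the count without Ebf1-Engrailed sample 1 or without either of empty-vector samples 1 and 2 was 2 and without Ebf1-Engrailed sample 2 was 3. Those lower came to 1 without Ebf1-Engrailed sample 1 or 2 or empty-vector sample 2. Lss, which closes the sterol rings, rose 3.01-fold (1.59 ± 0.20).

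Early-response genes moved both ways. Of 33 AP-1 and ERK feedback genes 9 were called higher (27.3%) and 5 lower. Those lower numbered 2 without Ebf1-Engrailed sample 1 or 2 or empty-vector sample 2, and 6 were higher without Ebf1-Engrailed sample 1. Fosl2, an AP-1 subunit, was at 2.04, 2.13 and 1.12 against -1.45, -1.12 and -1.39. It rose 8.49-fold (3.09 ± 0.27), with both probe sets called. Dusp4, a phosphatase that switches ERK off, rose 6.96-fold (2.80 ± 0.20), and Dusp5, another such phosphatase, fell 3.49-fold (-1.80 ± 0.36), a call lost without Ebf1-Engrailed sample 1 or 2 or empty-vector sample 2. Of 23 NF-kB subunits and feedback targets 3 were called higher (13.0%) and 1 lower, and 4 were called lower without empty-vector sample 3. The 3 were Ier3, a stress-response gene, at 4.19, 4.27 and 2.36 against -2.47, -2.36 and -4.01 (6.55 ± 0.63), Traf1, a TNF-receptor adaptor (3.13 ± 0.29), and Map3k8, a kinase (0.89 ± 0.13). Myc was at -0.41, -0.47 and 0.09 against 0.52, 0.54 and -0.09 and did not pass the test (-0.59 ± 0.22, adjusted p = 0.145).

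**Figure D3:**
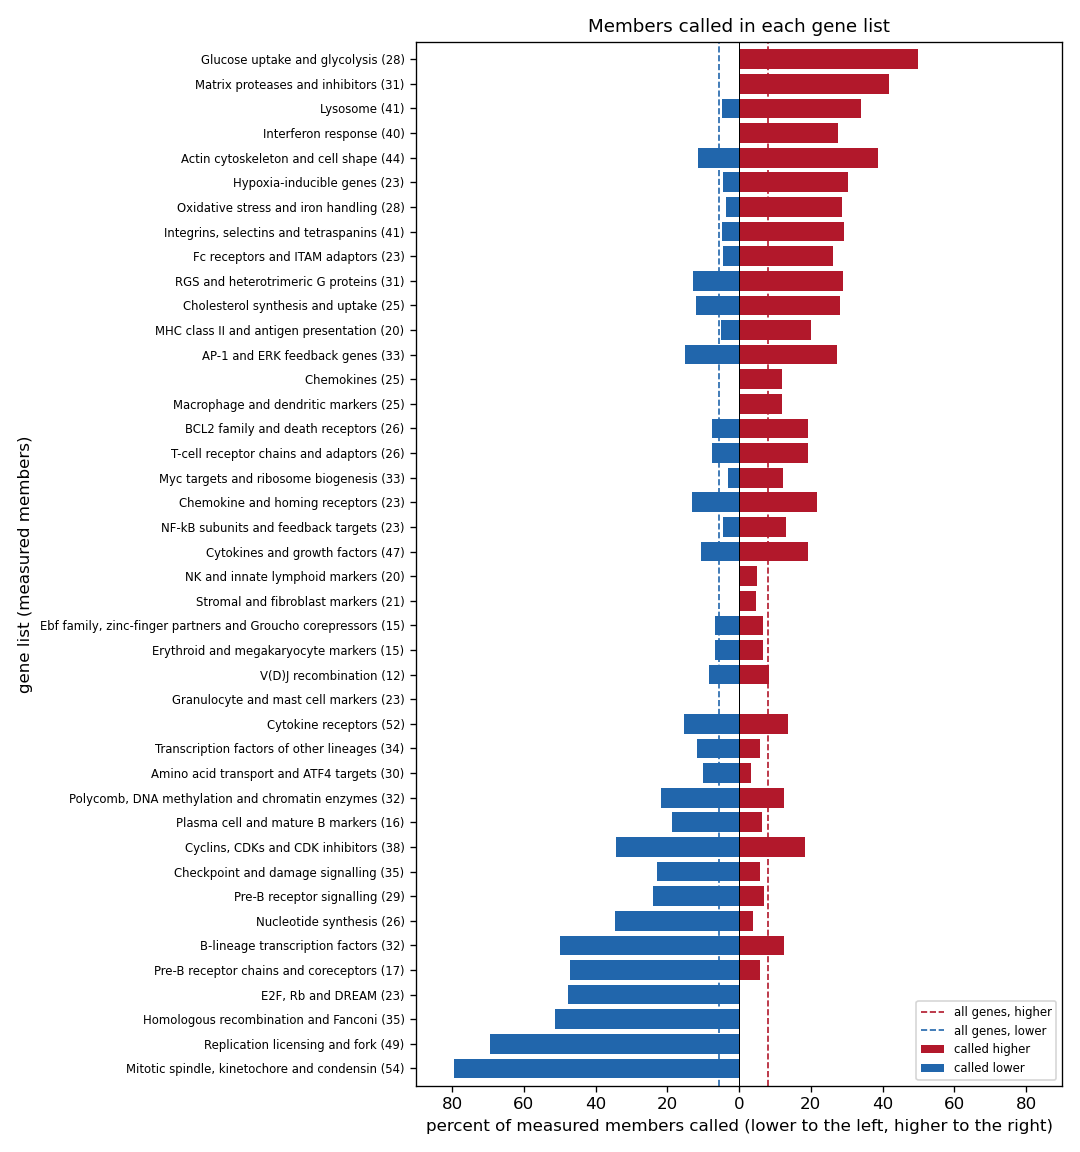
Percent of the measured members of each gene list called higher (red, to the right) and lower (blue, to the left) with Ebf1-Engrailed, with dashed lines at the shares of all genes, 7.93% and 5.67%. The mitotic (79.6%) and replication (69.4%) lists have the longest bars to the left, and glucose uptake and glycolysis (50.0%) the longest to the right.

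Interferon-response genes were high in Ebf1-Engrailed samples 1 and 2 and near the empty-vector samples in sample 3. Of 40 measured, 11 were called higher (27.5%) and none lower, with a median log2 change of 1.64. That median hides a split: the median pair difference was 2.13 for samples numbered 1, 1.95 for samples numbered 2 and 0.50 for samples numbered 3. Ifit1, an interferon-induced protein that binds viral RNA, was at 5.11, 5.15 and 0.94 against -1.39, -0.94 and -1.72. Usp18, which damps interferon signals, was at 3.97, 4.04 and 0.61 against -0.66, -0.61 and -2.83. Ifit1 had a log2 change of 5.08 ± 1.07 (adjusted p = 0.0222) and Usp18 of 4.24 ± 1.02 (adjusted p = 0.0361). None of the 40 was called without Ebf1-Engrailed sample 1 or without sample 2, 1 to 3 were called without any single empty-vector sample, and 32 were called without Ebf1-Engrailed sample 3. With the replicate block 22 were called, and without both samples numbered 3 the number was 34. Cmpk2 (0.13 ± 0.13) and Oasl1 (0.20 ± 0.15), other interferon-induced genes, did not pass the test.

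Ribosome biogenesis showed a split of its own. Among 33 Myc targets and ribosome biogenesis genes the median pair difference was -0.43 for samples numbered 1, -0.41 for samples numbered 2 and 0.24 for samples numbered 3. Only 1 member was called lower and 4 higher, but 15 were called lower without empty-vector sample 3 and 18 without both samples numbered 3. Odc1, the first enzyme of polyamine synthesis, rose 4.88-fold (2.29 ± 0.36), Mxd1, an antagonist of Myc, rose 3.93-fold (1.97 ± 0.17) and Mycn rose 2.16-fold (1.11 ± 0.10). Npm1, a nucleolar protein, was -0.27 ± 0.10 and did not pass the test.

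**Figure D4:**
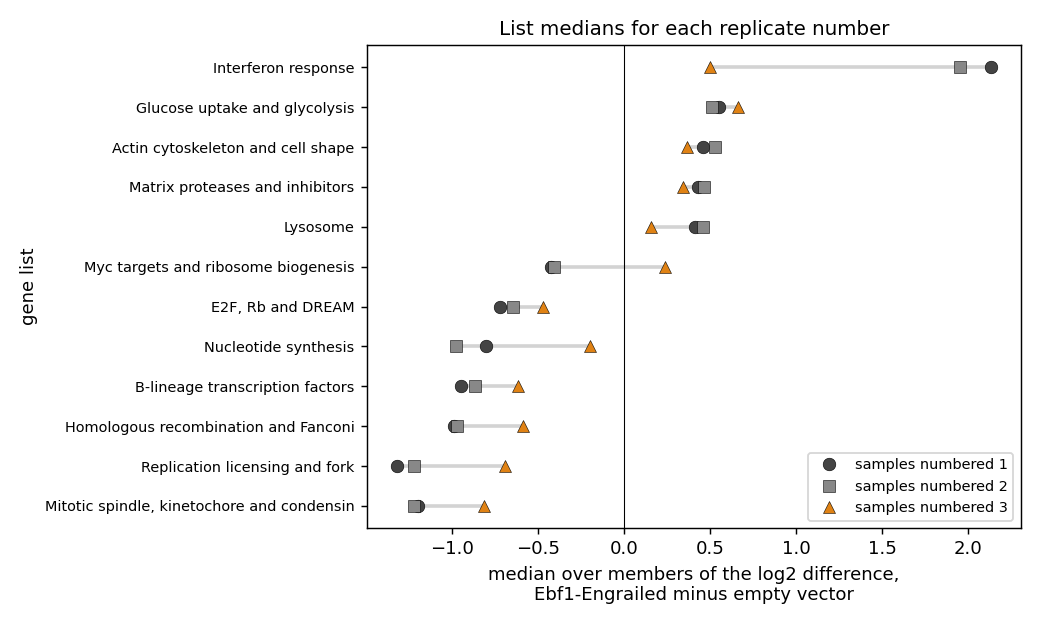
Median over the members of each list of the log2 difference between Ebf1-Engrailed and empty-vector samples with the same number (x axis), for samples numbered 1 (circles), 2 (squares) and 3 (triangles). Samples numbered 3 give 0.50 for the interferon list against 2.13 and 1.95, and lie above 0 for ribosome biogenesis where the others lie at -0.43 and -0.41.

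Genes of antigen presentation through MHC class II rose in part: H2-Aa rose 4.64-fold (2.21 ± 0.24, 4 of 4 probe sets), H2-Eb1 4.24-fold, H2-Ab1 3.70-fold and Ciita, their master regulator, 3.63-fold (1.86 ± 0.19). These were the 4 of 20 members called higher, and Ifi30, a lysosomal reductase, fell 3.67-fold (-1.88 ± 0.21). These class II genes are similar in sequence, and cross-hybridisation between them was not tested. Ciita was named after its value was seen. Of 26 BCL2-family and death-receptor genes 5 were called higher and 2 lower, and without Ebf1-Engrailed sample 2 those higher came to 1, without sample 1 to 2 and without empty-vector sample 2 to 3. Bik, a killer protein of the BH3-only class, rose 2.34-fold (1.23 ± 0.12).

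Markers of other cell types were examined because several of the raised genes are best known from macrophages and T cells. Of 25 macrophage and dendritic markers 3 were called higher and none lower: Cd68, Adgre1 (0.61 ± 0.15) and Mrc1 (0.58 ± 0.15). The share of 12.0% stands beside 7.93% of all genes, none of the 3 was called without Ebf1-Engrailed sample 1 or 2, and Mrc1 was not called with the replicate block (adjusted p = 0.0528). The median value over the list was 0.10, 0.11 and 0.03 in the Ebf1-Engrailed samples and -0.15, -0.04 and -0.15 in the empty-vector samples. The part of such cells in the results above was not tested. Csf1r (0.27 ± 0.10) and Itgax did not pass the test. None of 23 granulocyte and mast cell markers was called. Of 20 NK and innate lymphoid markers only Klrd1, an NK-cell lectin receptor, was called (1.91 ± 0.40), and of 21 stromal markers only Col6a1, a collagen chain (1.20 ± 0.25). Klrd1 was not called without Ebf1-Engrailed sample 1 or either of empty-vector samples 1 and 2, and Col6a1 was not called when any of the 4 samples numbered 1 or 2 was left out. Among 15 erythroid and megakaryocyte markers Gata1 was called higher, though not without Ebf1-Engrailed sample 1 or 2, and Car2, a carbonic anhydrase, lower (-1.13 ± 0.17). Of 16 plasma and mature B-cell markers 3 were called lower, among them Irf4 and Jchain, the joining chain of secreted antibodies (-1.09 ± 0.15), and 5 were called lower with the replicate block. The 1 called higher was Cd55, a complement regulator (1.16 ± 0.26). In a bulk sample fewer cells of a type and less RNA per cell cannot be told apart.

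The changes with the largest moderated t, which grows with the change and with a small spread over these samples, were not all the largest. The 10 increases with the largest moderated t statistic included Arap3, a GTPase-activating protein controlled by PI3-kinase. Its values were 2.32, 2.48 and 2.71 against -2.43, -2.45 and -2.32, a 29.9-fold rise in the probe set used (4.90 ± 0.13). All 3 of its probe sets were called, with a mean log2 change of 2.54. Nlrc3, a member of the NLR family of innate sensors, rose 23.8-fold (4.57 ± 0.13), Nrxn3, a neurexin known from synapses, 12.8-fold (3.67 ± 0.14) and Aopep, an aminopeptidase, 10.8-fold (3.43 ± 0.10). For Aopep 2 of its 4 probe sets were called, and the mean log2 change over all 4 was 1.61. Among the 10 decreases chosen in the same way, Sult1d1, a sulfotransferase, was at -1.43, -1.51 and -1.28 against 1.28, 1.57 and 1.43. It fell 7.12-fold in the probe set used (-2.83 ± 0.12), and both of its probe sets were called. Asb2, a substrate receptor of a ubiquitin ligase, fell 4.51-fold (-2.17 ± 0.13), Ttll11, a tubulin-modifying enzyme, 6.49-fold (-2.70 ± 0.16) and Nsl1, a kinetochore subunit, 2.91-fold (-1.54 ± 0.10). Further large decreases were those of Fetub, a secreted protease inhibitor (12.2-fold, -3.61 ± 0.25), Mfsd4a, a membrane transporter (10.2-fold, -3.34 ± 0.26), and Wnt10a, a Wnt ligand (8.00-fold, -3.00 ± 0.37). Irs1, the insulin receptor substrate, fell 6.18-fold, with Ebf1-Engrailed samples at -2.61, -2.46 and -0.31, and was called in 1 of the 6 fits that left out a sample.

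Another experiment of the series used a form of Ebf1 that can be switched on, and its values are set beside those above. Whether Ebf1-Engrailed opposed Ebf1 in the 230238 line was not tested. Fetal liver cells of Ebf1-/- embryos at E14.5, of strain C57BL/6J and grown on OP9 stromal cells with KIT ligand, FLT3L and interleukin-7, carried Ebf1-ER, a form of Ebf1 that tamoxifen activates, and had 2 arrays each at 0, 6, 12 and 24 h. The series lists no matched samples without Ebf1-ER or without tamoxifen at the later hours. Effects of tamoxifen and of time in culture thus cannot be told apart from those of Ebf1-ER. No array is shared with the 230238 samples, while the comparisons of 24 h with 6 h and with 0 h share their 24 h arrays. Each gene was represented here by its most variable probe set over the 8 Ebf1-ER arrays, which need not be the one used above. From 6 to 24 h 895 genes rose (4.92%) and 798 fell (4.39%). Of the 1032 genes called lower with Ebf1-Engrailed 315 (30.5%) rose over that time, which is 35.2% of the 895, and 44 (4.26%) fell. Of the 1443 called higher 135 (9.36%, or 16.9% of the 798) fell and 58 (4.02%) rose. From 0 to 24 h 21.0% of all genes rose and 17.8% fell. Of the genes lower with Ebf1-Engrailed 540 (52.3%) rose over that time and 167 (16.2%) fell. Of those higher 558 (38.7%) fell and 209 (14.5%) rose. These overlaps were not tested.

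Named genes differed in how the experiments related. Igll1, with a log2 change of -4.14 under Ebf1-Engrailed, was 2.85 ± 0.09 higher at 24 h than at 6 h with Ebf1-ER. Vpreb1 was 1.08 ± 0.12 higher and Foxo1 0.98 ± 0.10 higher over those hours, and Erg 0.72 ± 0.14 higher. Vpreb3, in contrast, was -0.16 ± 0.15 and did not pass the test, and Myb, Irf4 and Gng4 were also not called from 6 to 24 h. Ccl3, the chemokine raised by Ebf1-Engrailed, was lower at 24 h by -3.33 ± 0.09 against 6 h and by -5.38 ± 0.09 against 0 h. Id2 was -2.45 ± 0.12 and Ccr2 -2.36 ± 0.15 at 24 h against 0 h. Against 6 h, Ccr2 was -0.48 ± 0.15 and did not pass the test. For Csf2 (0.13 ± 0.10), Mmp12 (0.14 ± 0.11), Il10 (0.06 ± 0.13) and Mmp9 (-0.11 ± 0.14) the change from 0 to 24 h did not pass the test, although each was among the 37 genes called at least 16-fold higher with Ebf1-Engrailed.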

How the data were processed

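RNA of 6 samples of the 230238 line was hybridised to 1-colour Affymetrix arrays. The log2 values used are those the authors deposited; per the submitters' processing notes they were made with RMA, whose version is not given in the sources used here. The log base is not stated and was taken as 2. All 34958 probe sets with a single gene symbol had a median of 0 over the 6 arrays, so levels, low-value filters and scanner signal were not available for use here. Of 45101 probe sets, 932 name several genes and 9211 none and were left out.

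Each of 18194 genes was represented by its most variable probe set in these 6 arrays. Groups were compared with limma 3.58.1 (lmFit, eBayes, no trend) in R 4.3.3, two-sided, with Benjamini-Hochberg adjustment over all genes and a threshold of 0.05; errors are standard errors with n = 3 and 3. Deviations from the group means of same-numbered samples correlated at 0.286, 0.356 and 0.445. Ebf1-Engrailed sample 1 with empty-vector sample 2 gave 0.289, and Ebf1-Engrailed sample 2 with empty-vector sample 1 gave 0.141. A sample numbered 3 with one of another number gave -0.403 to -0.259. The correlations thus set the samples numbered 3 apart but do not show that samples 1 and 2 are paired by number. Alternatives were other probe-set rules, scalings, weights, thresholds, the replicate block and leaving out samples.

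The members and gene lists were chosen with earlier results of these data known. Named genes were 16 genes given by name, the 15 largest increases and 15 largest decreases without overlap, the 10 largest moderated t in each direction, and in each list up to 4 called members with the largest change and 2 uncalled members with the narrowest 95% interval; others are marked in the text.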

Additional observations from a re-analysis of the deposited data

How the results depend on the processing

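The experiment had 2475 calls, 1443 higher and 1032 lower. Leaving out a sample gave 1135 to 3185 calls, 698 to 1842 higher and 434 to 1343 lower. With the replicate block, which pairs same-numbered samples, there were 3498 calls, 1876 higher and 1622 lower, and of the 176 named genes that were called 175 were still called, the exception being Mrc1. Array weights gave 4949 calls (2585 higher, 2364 lower), a fit over all groups of the series 5484 (2818 and 2666), and leaving out both samples numbered 3 gave 4773 (2491 and 2282). A threshold of 0.01 gave 1098 (677 and 421), and a log2 change of at least 1 gave 1012 (647 and 365). The mean of probe sets, a variance filter, median subtraction, quantile normalisation, robust fitting and every probe set stayed within 1.5 times the count. No named gene reversed direction where it was called in the main fit or in the alternative. Sign changes of genes called in neither were not counted. Ccr8, a chemokine receptor, was one, at 0.03 in the main fit and -0.07 without both samples numbered 3. Of the 176 named genes called, 134 were called in all 6 fits that left out a sample. The cause of these differences was not tested. With values centred per probe set, signal over background could not be used to limit any call.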
